A study of Mus musculus with 2 samples.

Results

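A set of 10 genes that mark astrocytes was followed in the prefrontal cortex (PFC) of mice exposed to chronic mild stress (CMS). They are Gfap, Aqp4, S100b, Aldh1l1, Glul, Gja1, Gjb6, Sox9, Slc4a4 and Ndrg2, taken by name and not by their measured values, and they are 10 of the 27117 gene names that gave a ratio between the arrays. Their probes were found through the RefSeq accession of each spot, and the 10 genes held 15 probes. Astrocytes take up glutamate and potassium released by neurons, store glycogen, wrap blood vessels with their endfeet and are coupled to each other by gap junctions. They respond to injury and inflammation with a reactive state in which the intermediate filament protein GFAP is typically raised. Loss of astrocytes or of their marker genes in the frontal cortex has been studied as a feature of depression and of stress models in rodents, and the comparison of the 2 pools bears on whether these genes differed after CMS.

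Male C57Bl/6 N sea mice aged 9 to 10 weeks at the start were either given ordinary care (C group) or exposed to CMS for 4 weeks (CMS group), and the labels name no allele or transgene. The stressors were water deprivation, continuous light, a wet or tilted cage, restraint, forced swimming and foot shocks. Mice of the C group lived 3 to 5 to a cage and those of the CMS group were housed singly, so stressors and single housing cannot be told apart. Brains were taken the day after the last stressor. Total RNA of the PFC was pooled for each group and hybridized to 1 one-color Agilent array, and both arrays lay on 1 slide. The design text gives 7 mice in each pool, whereas the methods give 10 mice per group for arrays and qRT-PCR. With 1 pool per group, no difference could be set against the spread between mice, no test between the groups was made, and all values below compare 2 arrays. Because whole tissue was pooled, fewer astrocytes and less RNA per astrocyte cannot be told apart.

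Each array carried 59305 spots other than controls, of which 65.2% in the control pool and 65.9% in the CMS pool were well above background, and 0 were saturated. Signals are given as scaled intensities, with each array brought to a mean of 2500, and the lowest signal well above background was then 17.8 in the control pool and 17.6 in the CMS pool. The differences are log2 ratios of CMS over control, where 0 is no difference, 1 is 2-fold higher and -1 is 2-fold lower. Their median over all genes was -0.03. Between repeated spots of a probe the log2 ratio varied with an SD of 0.14 (335 probes). The scanner software gave every spot of these 15 probes an error of 10% to 12.9% of its signal. For a ratio this comes to 0.20 to 0.25 on the log2 scale. On the brightest probe of every gene it stayed near 10%, at control signals from 562 to 38232. Probes with a single spot carried it too, so it is a share set by the software and not a spread measured between spots. The repeated spots of Gja1 and Sox9 had log2 ratio SDs of 0.04 and 0.08. The spread between spots and the scanner error both lie within the arrays and leave out the variation between mice.

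All 15 probes of the 10 genes were well above background in both pools, and the brightest probe of every gene lay at least 31.6 times above the lowest such signal in the C group. This shows that the genes were detected in the tissue and not which cells made the RNA. None of the 10 genes differed by more than 2-fold, where 2.53% of all genes did, 1.96% upwards and 0.564% downwards. The median log2 ratio over the brightest probe of each gene was -0.004, with 5 genes above 0 and 5 below it. The summed signal of these probes was 112835 in the control pool and 112889 in the CMS pool. Ndrg2, Glul and S100b made up most of both sums, so these describe mainly those bright probes. Only Gfap lay past 1.2-fold, a limit that is 0.26 on the log2 scale. This is 1 of 10 genes, where 19.5% of all genes lay past it, 9.49% higher and 10% lower. The share over all genes includes many dim probes, and of the 11368 genes whose control signal lay inside the span of these 10 genes, from 562 to 38232, 3.82% were past 1.2-fold in either direction and 2.42% were lower. Bounding the comparison by that span was chosen after the values were seen.

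**Figure D1:**
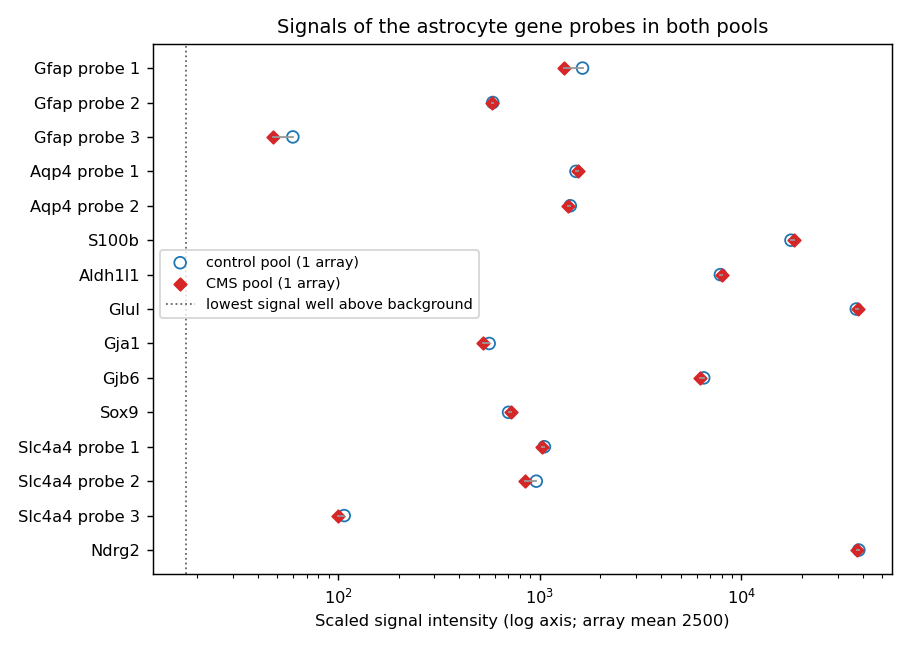
Scaled signal intensity (log axis) of the 15 probes of the 10 astrocyte genes in the control pool (open circles) and the CMS pool (diamonds), 1 array each, with the lowest signal well above background as a dotted line. Both symbols of a probe nearly coincide except for Gfap probes 1 and 3 and Slc4a4 probe 2, and levels of different probes should not be compared.

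Gfap encodes the glial fibrillary acidic protein, the intermediate filament protein of astrocytes, and it had the lowest log2 ratio of the 10 genes. Its brightest probe, which the array assigns to transcript NM_001131020, had a signal of 1631 in the control pool and 1325 in the CMS pool. The log2 ratio was -0.30 with a scanner error of 0.20, which is 1.23-fold lower in the CMS pool. A dim probe assigned to the same transcript gave 59.7 in the control pool and 47.6 in the CMS pool, so that the log2 ratio was -0.33 with an error of 0.25. The probe assigned to the other transcript, NM_010277, gave 585 and 579, a log2 ratio of -0.02 with an error of 0.20. Gfap was thus lower by about the same factor on both probes of NM_001131020 and differed by 0.02 on the probe of NM_010277, and its 3 log2 ratios spanned 0.31. Among all 573 genes with 3 probes above background on both arrays, the median span was 0.20 and the upper quartile 0.30. The mean over the 3 Gfap probes was -0.21, which is inside the 1.2-fold limit. Whether the probes read the transcripts separately was not tested, because their sequences were not used here.

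S100b encodes a calcium-binding protein that astrocytes secrete and that some oligodendrocytes also contain. It had the highest log2 ratio of the 10 genes, with a signal of 17617 in the control pool and 18342 in the CMS pool, so that the log2 ratio was 0.06 with an error of 0.20. The other 8 genes lay between S100b and Gfap.

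To show the DNA next to the genes with the lowest and the highest ratio, the 250 bases before the RefSeq transcription start of Gfap and S100b are printed 5′ to 3′ on the strand of the gene (GRCm38.p6). Capitals mark matches to the half-site of NFI, the nuclear factor I family that takes part in turning on astrocyte genes, searched as TTGGC on both strands. Gfap lies at chr11:102897201-102897450 on the minus strand and S100b at chr10:76253586-76253835 on the plus strand.
Gfap: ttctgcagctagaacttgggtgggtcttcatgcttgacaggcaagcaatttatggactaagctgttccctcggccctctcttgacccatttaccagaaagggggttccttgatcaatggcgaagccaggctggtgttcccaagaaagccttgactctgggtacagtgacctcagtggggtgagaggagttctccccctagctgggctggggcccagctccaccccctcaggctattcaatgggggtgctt
S100b: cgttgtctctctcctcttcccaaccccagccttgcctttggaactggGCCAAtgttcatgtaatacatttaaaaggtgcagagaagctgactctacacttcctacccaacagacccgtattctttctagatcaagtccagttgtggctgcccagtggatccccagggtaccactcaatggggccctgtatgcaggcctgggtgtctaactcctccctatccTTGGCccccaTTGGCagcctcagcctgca
The S100b window held 3 half-sites and the Gfap window 0. Promoters were listed for 8 of the 10 genes (all but Aqp4 and Sox9), and 4 of the 8, namely Glul, Ndrg2, S100b and Slc4a4, had a half-site in at least 1 window, where 45.3% of 27025 genes had one. None of the 8 held a STAT site (TTCNNNGAA, in 8.13% of all genes), the SOX core ACAAT (30.9%) or the E-box CACGTG (6.86%), each searched on both strands of the same 250 bases. These are matches of letters and not measured binding.

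The genes of the endfeet and of ion transport differed little. Aqp4 encodes aquaporin 4, the water channel of the endfeet around vessels. Its brighter probe gave 1513 in the control pool and 1557 in the CMS pool, so that the log2 ratio was 0.04, and its other probe gave 1418 and 1374, a ratio of -0.05. The 2 probes lay on opposite sides of 0 and within 0.09 of each other, below the median span of 0.11 over 3371 genes with 2 probes. Slc4a4 encodes a sodium bicarbonate cotransporter, and all 3 of its probes were assigned to NM_018760. The brightest gave 1055 in the control pool and 1023 in the CMS pool, so that the log2 ratio was -0.04. The second gave 962 and 846, a ratio of -0.19, and the dimmest gave 107 and 100.3, a ratio of -0.10. All 3 Slc4a4 probes were lower in the CMS pool, by less than the scanner error of 0.20 to 0.22, and no probe lay past 1.2-fold.

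Gja1 and Gjb6 encode the main gap junction proteins, or connexins, of astrocytes, and both were slightly lower in the CMS pool. Gja1 was printed as 10 spots on each array, so its signal is better measured than that of most members. In the C group the spots lay between 531 and 621, with the middle of the spots at 560, and in the CMS group between 480 and 566, with the middle of the spots at 521. The spots of the groups overlapped, but each of the 10 spots was lower in the CMS pool than its counterpart at the same place on the other array. The mean signal was 562 ± 27.1 (SD over 10 spots) on the control array and 523 ± 25.5 on the CMS array, and the log2 ratio was -0.10, with single spots between -0.17 and -0.06 and an SD of 0.04. This SD describes the repeated spots of 1 hybridization and not mice, and the median of all genes, at -0.03, lay above all 10 spots. Gjb6, on 1 spot, gave 6508 in the control pool and 6222 in the CMS pool, so that the log2 ratio was -0.06 with an error of 0.20.

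The enzymes were closest to 0. Glul encodes glutamine synthetase, which in the brain is found mainly in astrocytes and turns glutamate into glutamine for return to neurons. Its signal was 37146 in the control pool and 37824 in the CMS pool, so that the log2 ratio was 0.03. Aldh1l1 encodes a cytosolic folate enzyme that is widely used as a marker of all astrocytes, and its signal was 7871 in the control pool and 8014 in the CMS pool, also a ratio of 0.03. Both differed by less than 2% (1.83% and 1.82%), with a scanner error of 0.20 on the log2 scale.

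Sox9 and Ndrg2 also lay near 0. Sox9 encodes a transcription factor that is present in most adult astrocytes. In the C group its 10 spots lay between 650 and 763, with the middle of the spots at 701, and the 8 CMS spots not marked as outliers between 680 and 746, with the middle at 717. The range of the CMS spots lay inside that of the C spots, with means of 701 ± 37.8 (SD over 10 spots) and 719 ± 21.4 (SD over 8 spots), and the log2 ratio was 0.04. Over the 8 spots kept on both arrays, single log2 ratios ran from -0.04 to 0.18 and 2 were below 0. Ndrg2, a stress-responsive member of the N-myc downstream-regulated family found in astrocytes, gave 38232 in the control pool and 37340 in the CMS pool, so that the log2 ratio was -0.03.

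**Figure D2:**
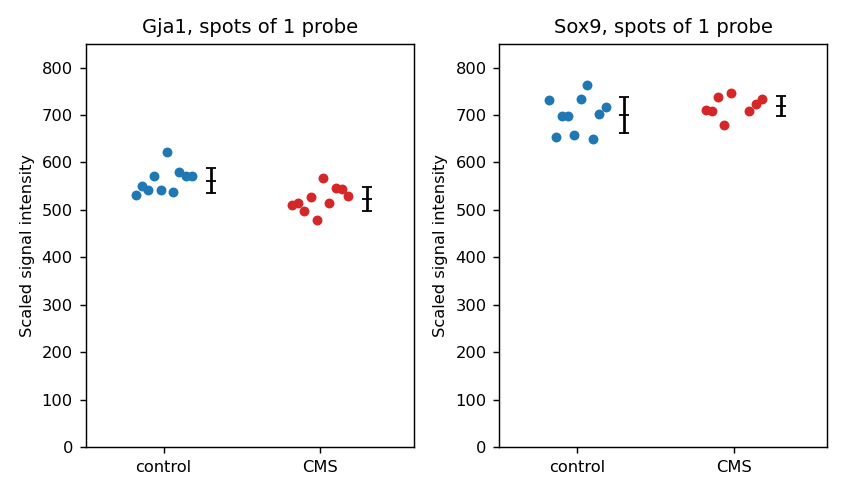
Scaled signal intensity of the repeated spots of the Gja1 probe and the Sox9 probe on the control array and the CMS array, with the mean and SD over spots beside them and the outlier spots left out. For both genes the spots of the 2 arrays overlap, and the Gja1 mean was 562 in the control pool and 523 in the CMS pool.

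In order of their log2 ratios the genes were S100b, Aqp4, Sox9, Glul, Aldh1l1, Ndrg2, Slc4a4, Gjb6, Gja1 and Gfap. Of the 9 steps between neighbours in this order, 8 were at most 0.06 and below the SD between spots, so the order within these is not resolved. Gfap, Gja1, Gjb6 and Ndrg2 were lower in the CMS pool under all 12 alternatives of the processing, whereas the sign of each other gene turned under at least 1 of them. The alternatives for dim probes and for the choice of probe could not change Gja1, Gjb6 or Ndrg2, each on 1 bright probe. Ndrg2, at -0.03, lay at the median of all genes, also -0.03. The step from Gja1 down to Gfap was 0.20, above the SD between spots and about as large as the scanner error of 1 ratio. Without Gfap the other 9 genes lay between -0.10 and 0.06, and their log2 ratios had an SD of 0.06. The SD was 0.11 over all 10 genes, 0.21 over the genes with a signal in the same span and 0.41 over all genes. Over all 15 probes, 10 were below 0 and 5 above, and the 2 probes past 1.2-fold were those of NM_001131020.

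**Figure D3:**
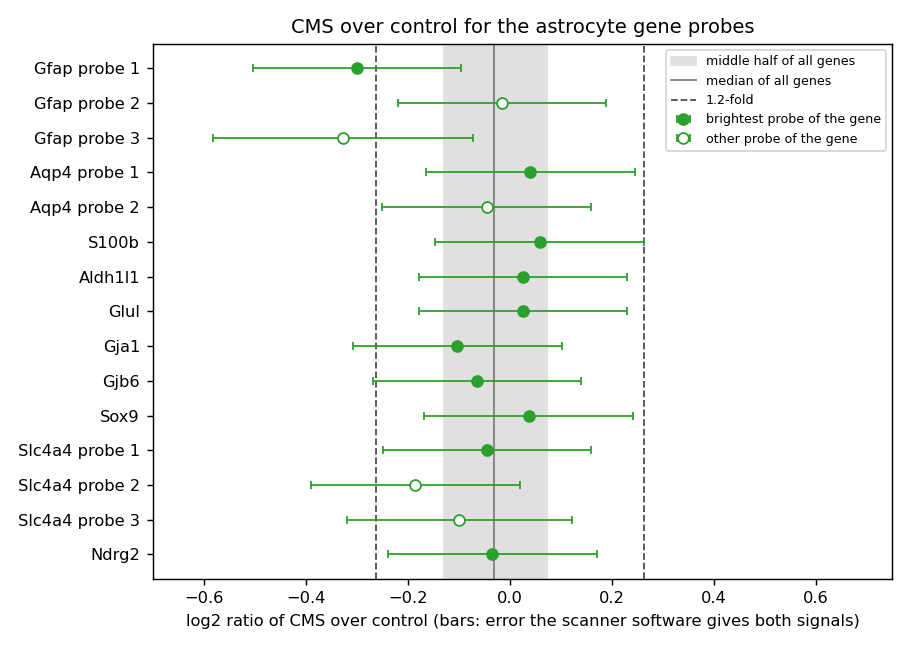
Log2 ratio of CMS over control for each of the 15 probes (filled, brightest probe of the gene; open, other probes), with bars for the error that the scanner software gives both signals, a grey band between the quartiles of all genes and dashed lines at 1.2-fold. Gfap probes 1 and 3, at -0.30 and -0.33, are the points outside the dashed lines.

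A further 30 genes that are enriched in astrocytes gave nearly the same picture. Their median log2 ratio was -0.05. Of the 30, 0 were past 2-fold, where 2.53% of all genes were. Past 1.2-fold were 3, where 19.5% of all genes were and 3.82% of those in the signal span of the 10 genes. Of those 3, 2 were higher in the CMS pool, namely Ranbp3l, with signals of 374 and 483 and a ratio of 0.37, and Cbs, an enzyme that makes cystathionine from homocysteine, with 3961 and 4783 and a ratio of 0.27. The other probe of Ranbp3l gave -0.06. Slc6a11, the GABA transporter GAT3 of astrocytes, was lower, with 1254 in the control pool and 1041 in the CMS pool and a ratio of -0.27. The next lowest was Ntsr2, a neurotensin receptor, at -0.16. Slc6a11 and Cbs lay close to the limit of 0.26. The count past it was 2 with the arrays scaled to the 75th percentile, the median or the trimmed mean and with quantile normalization. It was also 2 with averaged probes, in the deposited table and under normexp, where 8.94% of all genes were past the limit. The glutamate transporters that work ahead of glutamine synthetase had log2 ratios of 0.04 for Slc1a2 (GLT-1) and -0.09 for Slc1a3 (GLAST) on their brightest probes. The 3 probes of Slc1a2 ran from 0.04 to 0.31, so that at least 1 lay past 1.2-fold. Most of these genes, like most of the 10 followed here, lay inside the 1.2-fold limit on their brightest probes. The genes past it lay in both directions in this list, whereas of the 10 only Gfap was past it, on the lower side.

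Genes that work with the 10 were grouped by role. Of 12 genes of the endfoot scaffold and ion homeostasis, 2 were lower by more than 1.2-fold, and the median was -0.02. Of all genes 10% were lower by that much, and of those in the signal span of the 10 genes 2.42%. The 2 lower genes were Trpv4, a cation channel, with a log2 ratio of -0.30, and Dag1, the dystroglycan that anchors endfeet to the basal lamina, with -0.27. The count past 1.2-fold was 1 with the arrays scaled to the 75th percentile or the trimmed mean, with quantile normalization and in the deposited table. It was 3 with the dimmest probe, 0 under normexp and 4 with no scaling. Of all genes, 8.94% were past 1.2-fold under normexp and 39.0% with no scaling. The potassium channel Kcnj10 was at -0.02. The highest ratios of this group on the brightest probes were those of Dmd, the dystrophin gene, at 0.12 and the potassium channel Kcnj16 at 0.05. The other probe of Agrn, also in this group, gave 0.43, past 1.2-fold, against 0.02 on its brightest probe.

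None of 14 genes of glutamine, lactate and glycogen metabolism was past 1.2-fold, where 19.5% of all genes were, and their median was -0.08. The glucose transporter Slc2a1, which brain endothelium also makes, was lowest at -0.22, followed by the glycogen phosphorylase Pygb at -0.21. The highest were Glud1, glutamate dehydrogenase, at 0.05 and Ldha, lactate dehydrogenase A, at 0.03. Slc38a3, which exports glutamine from astrocytes, was at -0.11.

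Of 9 other connexin and pannexin genes, 8 had a ratio and Gja5 had none. Their median was 0.06, and Gjb1 alone was past 1.2-fold, where 19.5% of all genes were. The call of Gjb1 was lost with the arrays scaled to the median. Gjb1 encodes a connexin of oligodendrocytes and also of hepatocytes, and it was higher in the CMS pool with signals of 1831 and 2232 and a ratio of 0.29. Next came Gjd2, a neuronal connexin, at 0.16, and the lowest was Panx1 at -0.13. Gjb2, another connexin of astrocytes and meningeal cells, was at 0.01.

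The folate and one-carbon enzymes form the pathway of Aldh1l1. Of 11 genes, 5 were past 1.2-fold, where 19.5% of all genes were, 2 of them higher and 3 lower, with a median of -0.12. Under normexp the count was 2, where 8.94% of all genes were past the limit. Ftcd, an enzyme of histidine breakdown that is abundant in liver, was higher in the CMS pool, with signals of 67.0 and 358 and a log2 ratio of 2.42, and it was the only gene of the group past 2-fold, where 1.96% of all genes were above 2-fold. The next highest was Fpgs, folylpolyglutamate synthase, at 0.29. The lowest were Mthfd1l and Aldh1l2, both mitochondrial, at -0.45 and -0.41, Aldh1l2 on dim signals of 47.8 in the control pool and 36.0 in the CMS pool. Shmt1 was the third lower gene at -0.31, although its other probe gave -0.14. Aldh1l1 itself was at 0.03.

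Of 15 gliogenic transcription factors and Notch genes, 0 were past 1.2-fold on their brightest probes, where 19.5% of all genes were. Their median was -0.09. Of the genes in the signal span of the 10 astrocyte genes, 3.82% were past the limit. The count was 1 with the mean of all probes, 3 with the dimmest probe and 7 with no scaling, where 39.0% of all genes were past the limit. Other probes of Rfx4 and Nfib reached 0.52 and 0.38, and one of Stat3 was at -0.39. The lowest on the brightest probes were Id3 and Nfia, one of the NFI factors, both at -0.21, although the other Nfia probe gave 0.16, and the highest were Emx2 at 0.16 and Nfix at 0.12. Among synapse-forming proteins that astrocytes secrete, 9 of 10 had a ratio, all but Thbs1, and their median was 0.08. Gpc6, glypican 6, was above 2-fold on its 1 probe, where 1.96% of all genes were. It had signals of 122 and 289 and a log2 ratio of 1.25, and Tgfb1 followed at 0.15. The lowest were Thbs4 at -0.34 and Thbs2 at -0.06. Of 16 relatives of the 10 genes, 15 had a ratio, with a median of -0.03. Slc4a10, another bicarbonate transporter, was the only relative past 1.2-fold, where 19.5% of all genes were and 3.82% of those in the members' signal span. It lay at 0.37, followed by Aqp1 at 0.08. Ndrg4 and Ndrg1 were lowest at -0.15 and -0.13, and Aqp9 gave no ratio.

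Genes of the reactive state lay on both sides of 0. Pan-reactive genes had a median of 0.003 over 11 of 12 with a ratio, with 4 of 11 past 1.2-fold, 2 in each direction, where 9.49% of all genes were higher and 10% lower. Cp, which encodes the copper protein ceruloplasmin of astrocytes and liver, was past 2-fold with signals of 291 and 588 and a log2 ratio of 1.01, and Serpina3n was next at 0.33. With arrays scaled to the median the Cp ratio was 0.98, below 2-fold. Hspb1, a small heat shock protein, was lowest with 3428 in the control pool and 2397 in the CMS pool and a ratio of -0.52, and Osmr, the oncostatin M receptor, was at -0.44. The A1-type genes had a median of -0.05 over 10 of 11, with Serping1, the C1 inhibitor, highest at 0.55 and H2-T23 next at 0.17. Amigo2 was lowest at -0.79, on dim signals of 63.9 in the control pool and 36.9 in the CMS pool, followed by Gbp2 at -0.20. The A2-type genes had a median of -0.05 over 7 of 12, with S100a10 highest at 0.15 and Sphk1 next at -0.02. Clcf1 and Emp1 were lowest at -0.42 and -0.36, Clcf1 on dim signals of 63.9 in the control pool and 47.8 in the CMS pool. Steap4, Ggta1 and 5 of the A2-type genes (Tgm1, Ptx3, Cd109, Slc10a6 and B3gnt5) gave no ratio. Vim, the filament protein that accompanies GFAP in reactive astrocytes, was at -0.19.

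**Figure D4:**
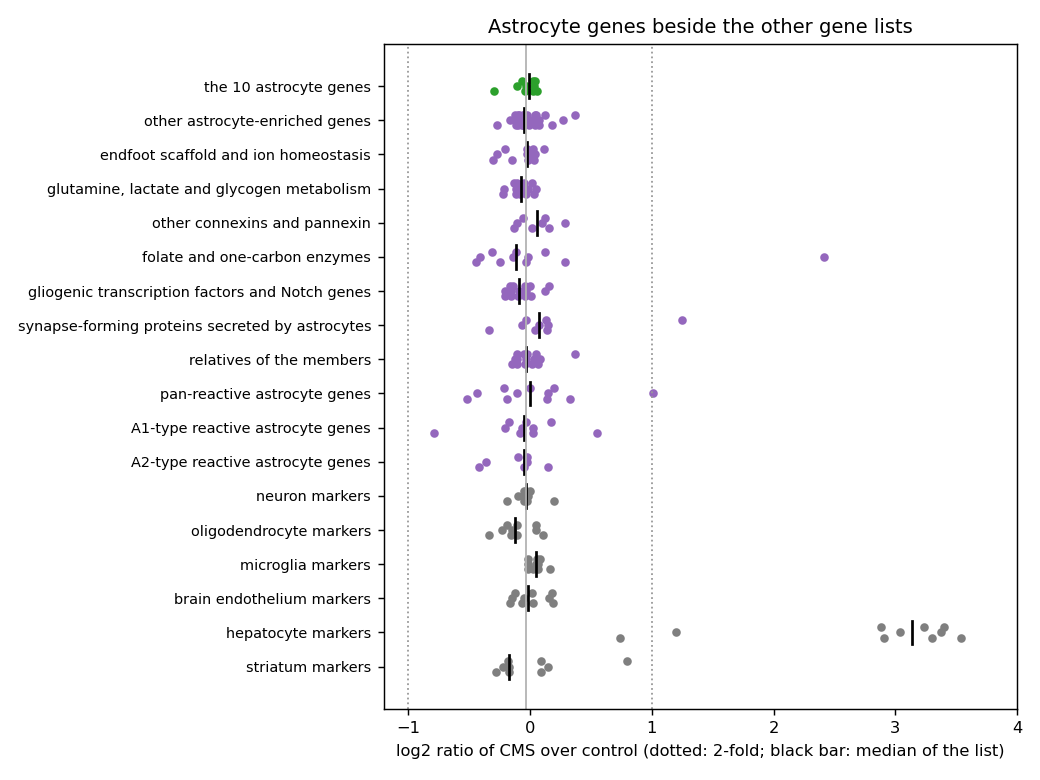
Log2 ratio of CMS over control for every gene with a ratio in each list, with a black bar at the median of the list, dotted lines at 2-fold and a grey line at the median of all genes. The 10 astrocyte genes lie between -0.30 and 0.06, and the hepatocyte markers have a median of 3.13.

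Markers of the other cells of the tissue were checked in the same way. All 10 markers each of neurons, oligodendrocytes, microglia and brain endothelium were well above background in both pools, and their median log2 ratios were -0.04, -0.13, 0.05 and -0.02. Among these, Gad1 and Gad2 of inhibitory neurons were lowest for neurons at -0.18 and -0.10, with Slc17a7 of excitatory neurons highest at 0.20 and Stmn2 next at 0.00. Mobp of oligodendrocytes was at -0.34 and Cldn11 at -0.23, with Mbp at 0.11 and Opalin at 0.05. For microglia, Cx3cr1 at 0.16 and C1qa at 0.08 were highest and Aif1 and Tmem119, both at -0.02, lowest, and for endothelium Cldn5 at 0.19 and Kdr at 0.18 were highest and Itm2a at -0.16 and Slco1a4 at -0.15 lowest. The markers of striatum, a neighbouring region, had a median of -0.17 over 9 genes, with Penk at -0.28 and Drd1 at -0.22 lowest and Pde10a at 0.15 highest among those well above background in both pools. The median over the astrocyte genes, -0.004, lay inside the range of the medians of the 4 brain cell types.

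Markers of hepatocytes stood apart. All 10 were well above background in both pools, and 9 of 10 were above 2-fold in the CMS pool, where 1.96% of all genes were. Their median was 3.13, and their summed signal was 16257.1 in the control pool and 75239.5 in the CMS pool. The highest were Alb at 3.53 and Apoa1 at 3.40, and the lowest Tat at 0.74, followed by Apoa2 with signals of 10714 and 24606, whose other probe gave a log2 ratio of 3.10. Apoa2 made up most of the control sum, and without it the summed signal was 5543 in the control pool and 50634 in the CMS pool, 9.13-fold higher against 4.63-fold with all 10. Leaving it out was chosen after the values were seen. Of the astrocyte genes, Glul, Aldh1l1, Ndrg2 and Slc4a4 are also made in liver, and their log2 ratios were 0.03, 0.03, -0.03 and -0.04. The part of the hepatocyte signal in the values of these genes, and in those of Ftcd, Cbs, Cp, Serpina3n, Serping1 and Gjb1, which the liver makes as well, was not tested.

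**Figure D5:**
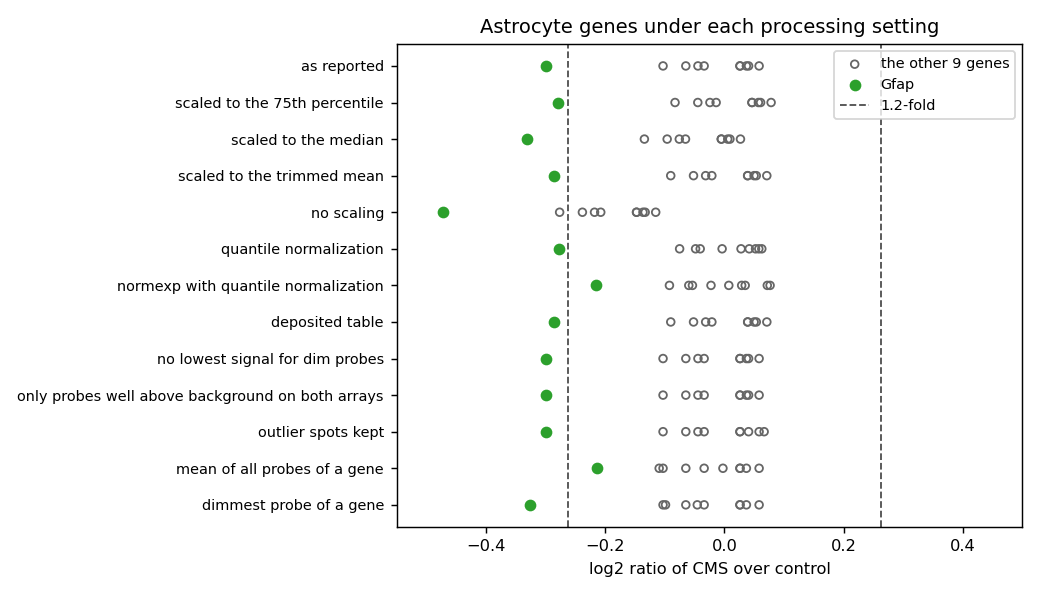
Log2 ratios of CMS over control of the 10 astrocyte genes under the reported processing and each of 12 alternatives (filled, Gfap; open, the other 9 genes), with dashed lines at 1.2-fold. Gfap has the lowest ratio in every setting, and it lies inside 1.2-fold under normexp (-0.22) and with the mean of its probes (-0.21).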

How the data were processed

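The authors extracted spot intensities with Agilent Feature Extraction 10.10.1.1, background-subtracted, spatially detrended and not scaled between arrays, and also deposited intensities multiplied by 1 factor per array, whose mean without the lowest and highest 2% of spots is 2500 (used as an alternative). Control spots and outlier spots (130 and 133) were left out, spots of a probe were averaged, and arrays were brought to an average of 2500, the value in the methods. Probes were taken as well above background if the scanner software marked a share of 0.5 or more of their spots so. A probe dim in 1 pool was given the higher of its own and the lowest well-detected signal, and probes dim in both gave no ratio. A gene took its brightest probe. Accessions without versions were named through the RefSeq table of GRCm38.p6 (30740 of 59305 spots), which also gave the promoter sequences. Spots not named in this way kept their accession as a name and were included in the values over all genes. The members and lists were chosen with earlier results of these data known. All 10 members were named with all probes, and from each other list every gene past 2-fold, the 2 highest and 2 lowest, and partners of the members, with a few of these not reported here. With 1 array per group no test, SD between mice or leave-one-out was possible, and precision is limited by the number of arrays. Alternatives covered scaling, background correction, dim probes, outlier spots and choice of probe. Calling was tried on simulated data with 200 changed genes. These were bright genes with changes larger than 1.2-fold and less noise than the spread between spots. The trial therefore does not cover dim genes or differences near 1.2-fold. Python 3.11.15, numpy 2.4.6, pandas 2.3.3, R 4.3.3 and limma 3.58.1 were used.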

Additional observations from a re-analysis of the deposited data

How the results depend on the processing

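No paired analysis was possible because only 1 array was made per group, and no replicate could be left out. The dimmest probe of the 10 genes, one of Gfap, lay at 3.36 times the lowest well-detected signal in the control pool and at 2.71 times in the CMS pool. Of 624 values recomputed over 12 alternatives, 546 stayed within a set limit and 78 moved, and no called value changed sign. The limit was the spread between spots for single ratios and 1.5 times for counts and shares. For list medians it was narrower and shrank with the number of genes, which treats the genes as independent. For the median of all genes it was fixed. The count of astrocyte genes past 2-fold was 0 under all 12. The count past 1.2-fold, 1, was 2 with no scaling (Gfap and Gja1), where 39.0% of all genes were past it. It was 0 with the averaged probes of a gene, where 19.9% of all genes were, and 0 under normexp, where 8.94% were. Gfap ran from -0.47 to -0.21 and the median of the 10 genes from -0.18 to 0.02.

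Leaving out the scaling shifted all genes to a median of -0.20, by construction. Gfap was then -0.47, Aqp4 -0.13, S100b -0.12, Aldh1l1 -0.15, Glul -0.15, Gja1 -0.28, Gjb6 -0.24, Sox9 -0.14, Slc4a4 -0.22 and Ndrg2 -0.21, so the directions of Aqp4, S100b, Aldh1l1, Glul and Sox9 depend on scaling. The medians with no scaling were -0.18 for the 10 genes, -0.22 for the other astrocyte-enriched genes, -0.19 for endfoot genes, -0.25 for glutamine and energy genes, -0.12 for connexins, -0.29 for one-carbon enzymes, -0.26 for gliogenic factors, -0.10 for synapse-forming proteins, -0.21 for relatives, -0.17 for pan-reactive, -0.22 for A1-type and -0.22 for A2-type genes. Under normexp the astrocyte-enriched median was -0.0056 and the one-carbon median -0.044. With averaged probes the one-carbon median was -0.033 and the gliogenic median -0.042. With the dimmest probe these were -0.033 and -0.042, and the synapse-forming median was 0.012. The cause of these moves was not tested.

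Cp fell below 2-fold with no scaling (0.84), under median scaling (0.98) and under normexp (0.84), and Gpc6 under normexp (0.96). Counts past 1.2-fold in the other astrocyte lists also moved: with no scaling to 9 for the enriched genes, 6 for glutamine and energy, 2 for connexins, 5 for relatives and 4 for A1-type genes, and under normexp to 1 each for synapse-forming, A1-type and A2-type genes. The share of all genes past 1.2-fold moved as well, from 19.5% to 39.0% with no scaling and to 8.94% under normexp.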
